A study of Rattus norvegicus with 28 samples.

Results

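Potassium channel genes were taken from whole-wall arrays of the rat aortic arch as every probe set whose annotation gives 1 gene symbol starting with Kcn. This gave 84 of 29214 probe sets, for 83 genes, 43 of which reached the minimum mean level of 4 over the 28 arrays and were tested. The pools came from male Wistar rats that received no treatment and whose age is not given in the sources used here. One group of 14 pools was cut from the distal part of the lesser curvature, where simulated wall shear stress (WSS) was low and its direction non-uniform (low WSS), and the other group of 14 from the greater curvature after the left subclavian artery, where it was high and uniform (high WSS). Each pool joined pieces of 5 rats, and by the methods the low and high WSS pools of a pair came from the same rats, so that 70 animals gave 14 pairs. Pools with the same replicate number were taken as a pair. Every pool held intima, media and adventitia together, so fewer cells of a type and less RNA per cell cannot be told apart, and position along the arch and WSS cannot be told apart either. The question put to the arrays is which genes differ with the local flow pattern in the healthy wall.

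Potassium channels let potassium leave the cell and thereby hold the membrane potential of smooth muscle cells negative, which keeps voltage-gated calcium channels closed and the vessel relaxed. Their genes fall into voltage-gated channels, electrically silent subunits that only work together with other voltage-gated subunits, inward rectifiers (including the channels gated by ATP), tandem-pore channels that carry leak currents, channels opened by intracellular calcium or sodium, and accessory subunits that form no pore. In arteries the large calcium-activated channel with its beta subunit, several voltage-gated channels and the ATP-gated channel are best known from smooth muscle, and the small and intermediate calcium-activated channels from the endothelium.

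The gene of the sodium-activated channel subunit Kcnt2 (Slick) was higher in low WSS in every pair, and that of the calcium sensor Kcnip3 was lower in every pair. The tandem-pore channel Kcnk3 and the small calcium-activated channel Kcnn3 were higher too. The voltage-gated channel Kcnh2 and the accessory subunits Kcnab1 and Kcnmb1 were lower. By limma with the pair as a block, and with a Benjamini-Hochberg adjusted p of 0.05 as the threshold, 7 of the 43 tested genes rose in low WSS, 14 fell and 22 did not pass. Over all 11750 genes tested in the same fit 41.7% passed, 19.7% higher and 22% lower, so the share of potassium channel genes that was higher (7 of 43) lay close to the background and the share that was lower (14 of 43) above it. Under the Bonferroni threshold, 1 was higher and 3 were lower, where 6.91% of all genes passed, 3.01% higher and 3.9% lower. The median log2 difference, always low minus high WSS, was -0.07 over the 43 genes and -0.01 over all genes. No member differed by 2-fold. All 14 pairs went the same way in 4 of the 43 members (Kcnt2, Kcnip3, Kcnh2 and Kcnmb1). That was so for 1083 of the 11750 genes, so this trait was about as common over all genes. The shares over all genes are also the background for the counts of each class and marker list below. The split of the calls moved with the scaling. When the median of every array was set equal, which raised the median over all genes to 0.03, 9 members were higher and 9 lower, in place of 7 and 14 (33.3% higher), and over all genes the higher share of the calls was 61.6% in place of 47.2%. These counts are a description, since a dim member could reach the minimum level through the region where it was high.

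**Figure D1:**
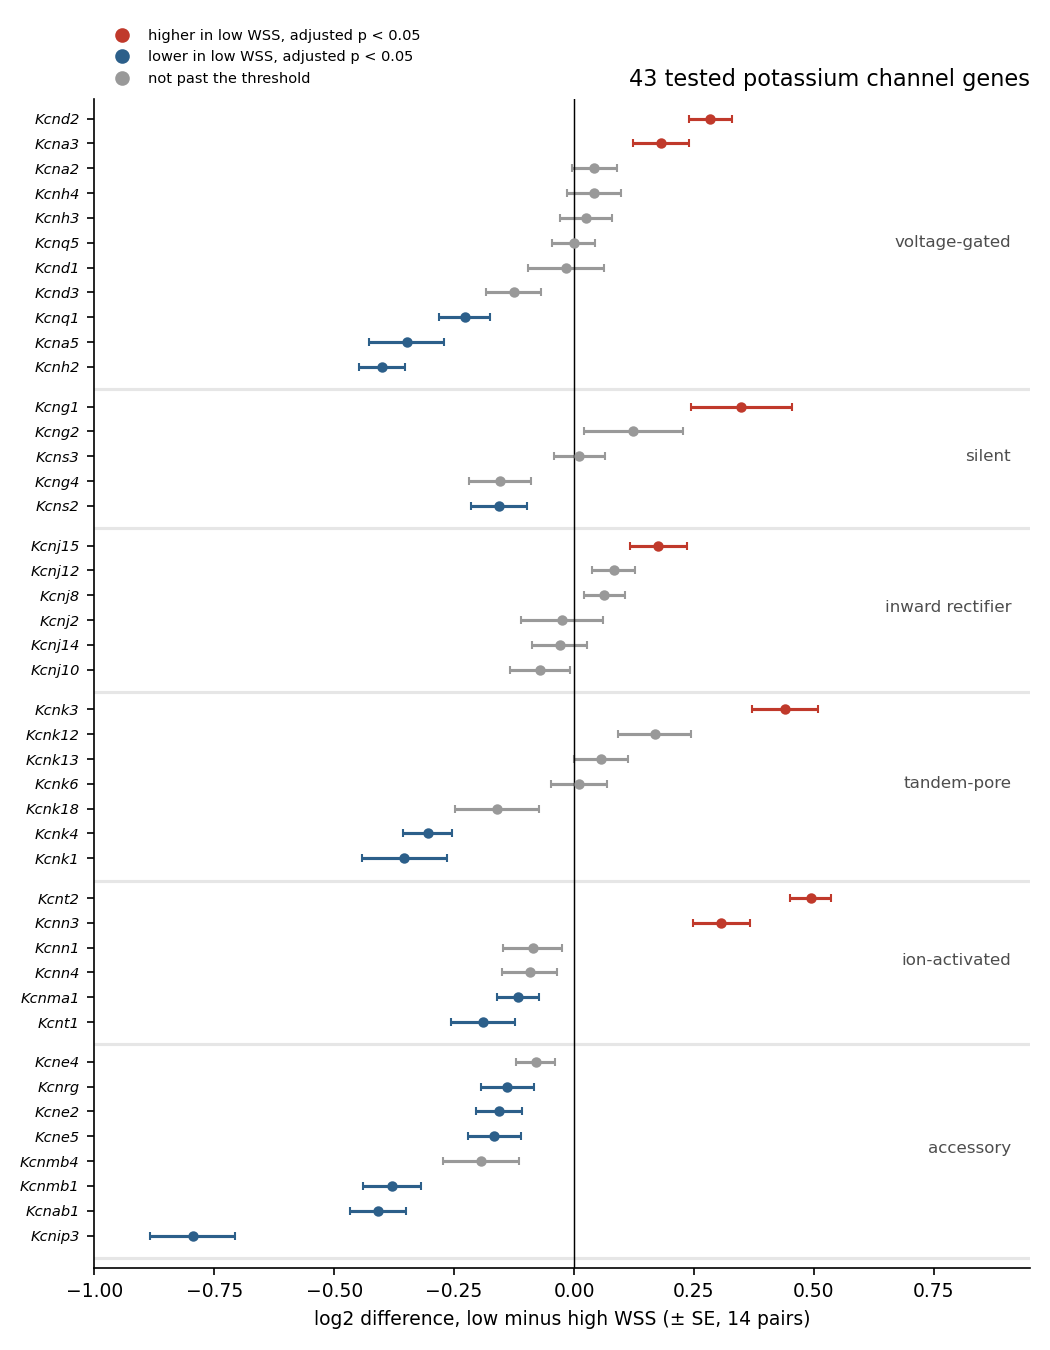
Log2 differences, low minus high WSS, of the 43 tested potassium channel genes, grouped by class down the page (points with SE, 14 pairs). Red points mark the 7 higher genes, blue points the 14 lower genes, and all 8 accessory subunits lie left of 0.

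The sequences of the starts of 4 genes are given first, because these genes, Kcnt2, Kcnip3, Kcnab1 and Kcnmb1, carry the largest differences among the members that have an entry in the promoter table. They are the 250 bases before the annotated start from RefSeq, build GRCr8, read along the gene, at chr13:54215057-54215306 (plus strand), chr3:135195411-135195660 (minus strand), chr2:151614301-151614550 (plus strand) and chr10:19061849-19062098 (plus strand). Capitals mark GGGCGG, the letters that Sp family factors bind, searched, as every motif here, on both strands.
Kcnt2: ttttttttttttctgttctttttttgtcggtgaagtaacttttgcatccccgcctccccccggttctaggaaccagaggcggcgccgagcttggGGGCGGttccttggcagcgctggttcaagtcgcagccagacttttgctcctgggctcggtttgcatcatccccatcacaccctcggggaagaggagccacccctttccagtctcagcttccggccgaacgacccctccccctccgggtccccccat
Kcnip3: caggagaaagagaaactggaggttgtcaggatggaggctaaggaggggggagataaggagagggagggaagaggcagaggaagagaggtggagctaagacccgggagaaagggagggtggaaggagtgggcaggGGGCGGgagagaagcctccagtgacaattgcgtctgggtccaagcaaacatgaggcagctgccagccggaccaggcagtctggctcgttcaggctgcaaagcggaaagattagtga
Kcnab1: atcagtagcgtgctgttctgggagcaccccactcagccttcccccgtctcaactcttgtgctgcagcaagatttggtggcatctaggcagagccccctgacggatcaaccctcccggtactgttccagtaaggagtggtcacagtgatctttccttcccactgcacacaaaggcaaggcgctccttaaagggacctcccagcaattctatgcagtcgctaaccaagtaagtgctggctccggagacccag
Kcnmb1: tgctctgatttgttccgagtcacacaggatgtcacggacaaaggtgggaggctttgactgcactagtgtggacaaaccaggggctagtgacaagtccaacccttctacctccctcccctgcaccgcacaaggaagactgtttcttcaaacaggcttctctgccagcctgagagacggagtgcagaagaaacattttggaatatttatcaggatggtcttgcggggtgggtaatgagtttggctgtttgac
The match begins 156 bases before the start in Kcnt2 and 116 bases before it in Kcnip3, and Kcnab1 and Kcnmb1 hold none in this window. Among the 28 tested members with an entry, 15 hold GGGCGG, against 30.5% of all 33469 windows of this length in the table. CACCC, the core letters of Kruppel-like factor sites, stands in 19 of the 28 and in 49.2% of all windows. The CArG box, the site of serum response factor in smooth muscle genes, and CATCTG, a form of the E box, stand in 0 of the 28, against 1.5% and 14% of all windows. Of the 13 members with an entry that passed the test, 6 hold GGGCGG and 11 hold CACCC. The table mixes all kinds of genes, so these shares are a description of letters and not of binding.

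Among the channels opened by ions, Kcnt2, the Slick subunit that intracellular sodium opens, had levels of 6.93 to 7.43 (median 7.19) in the low WSS pools and 6.44 to 6.85 (median 6.69) in the high WSS pools (log2 scale, as all levels here). All 14 low WSS pools lay above all 14 high WSS pools, which was so for 0.63% of all genes. The difference was 0.49 (SE 0.04, adjusted p = 1.78e-07 by limma, 14 pairs), that is 1.41-fold. Its relative Kcnt1 (Slack) fell by 0.19 (SE 0.07, adjusted p = 0.029), so the 2 sodium-activated genes went opposite ways, although the call for Kcnt1 ended under either other scaling, with covariates for smooth muscle or fat, and without replicate 4, 7, 12 or 13. Kcnn3, a small calcium-activated channel of endothelial cells, ran from 6.20 to 6.89 (median 6.49) in the low WSS pools and 5.86 to 6.29 (median 6.17) in the high WSS pools. In 12 of 14 low WSS pools it lay above the highest high WSS pool, and its difference was 0.31 (SE 0.06, adjusted p = 0.000504). Of 8 tested endothelial markers 0 passed by limma (also 0 at an unadjusted p under 0.05), and their mean ran from 6.77 to 7.60 in the low WSS pools and from 6.78 to 7.63 in the high WSS pools. Kcnn4, the intermediate calcium-activated channel of endothelium, differed by -0.09 (95% confidence interval -0.21 to 0.03) and Kcnn1 by -0.09, and neither passed the test.

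**Figure D2:**
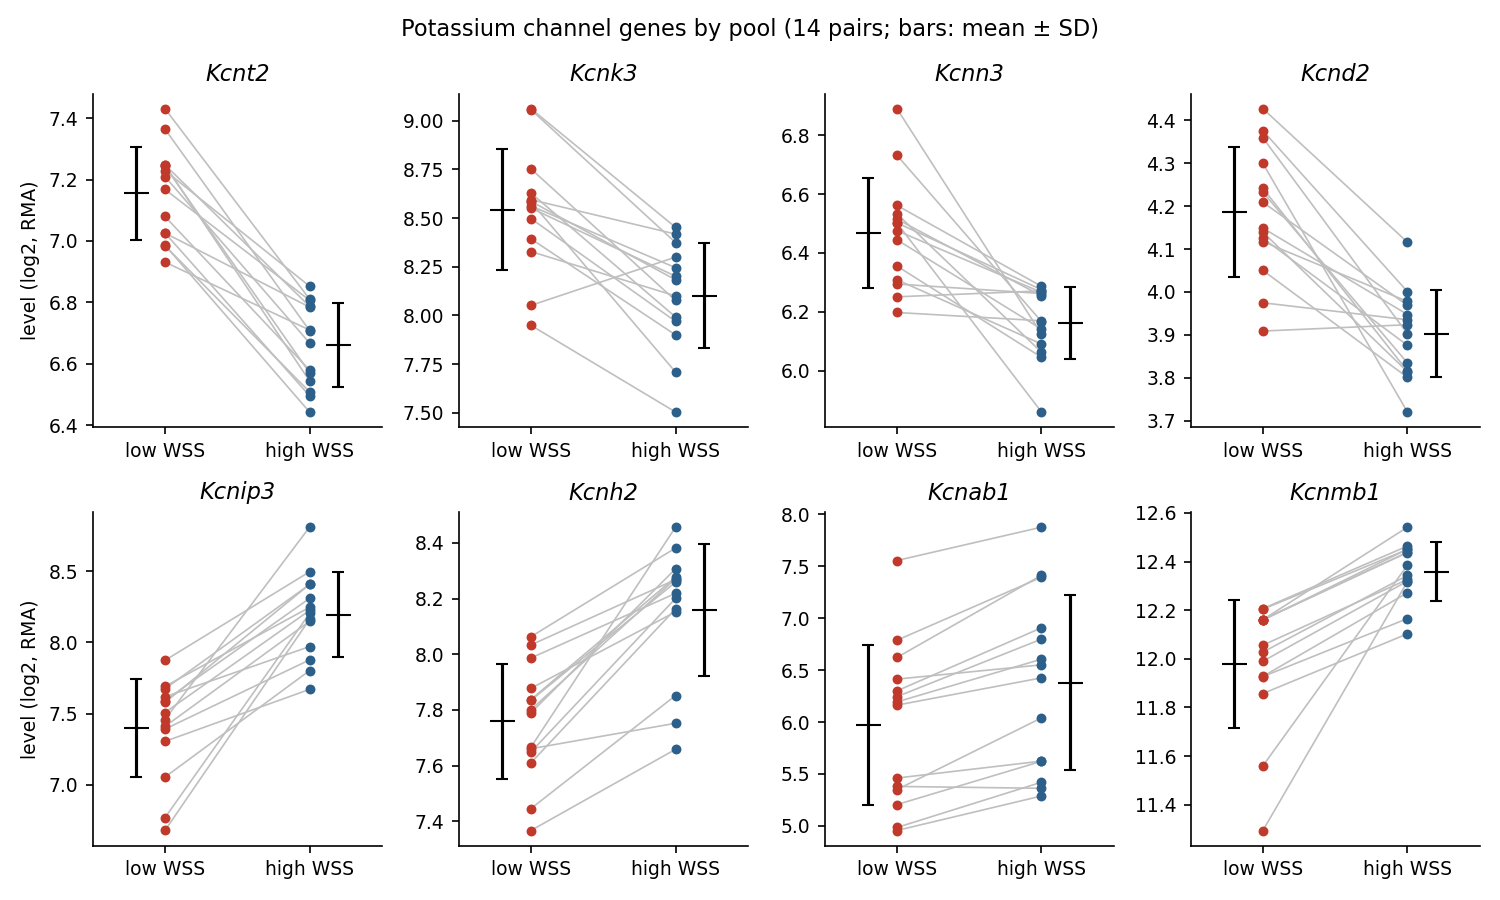
Levels of 8 potassium channel genes (log2, RMA) in the 14 low WSS pools (red) and the 14 high WSS pools (blue), with lines joining pools of the same pair and bars giving the mean and SD. The Kcnt2 pools of the 2 regions do not overlap, while the Kcnab1 lines run nearly parallel over a wide range.

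The large calcium-activated channel is a brake on contraction in arterial smooth muscle, and its pore and beta subunit genes were both lower in low WSS. Kcnmb1, the beta subunit that raises the calcium sensitivity of the pore, had levels of 11.29 to 12.21 (median 12.04) in the low WSS pools and 12.10 to 12.54 (median 12.36) in the high WSS pools. It was lower in all 14 pairs, with 8 low WSS pools below the lowest high WSS pool, and fell by 0.38 (SE 0.06, adjusted p = 8.41e-05). The 2 lowest pools were those of pairs 2 and 3, and in pairs 4 to 14 alone the difference was -0.29 (adjusted p = 7.73e-06). Kcnma1, the pore, ran from 9.75 to 10.48 (median 10.09) in the low WSS pools and 10.01 to 10.48 (median 10.13) in the high WSS pools, and fell by 0.12 (SE 0.04, adjusted p = 0.0379), in 9 of 14 pairs. That call ended without replicate 1, 2, 3, 4, 7 or 8, and in pairs 4 to 14 the difference was -0.06 (adjusted p = 0.258). It also ended with arrays centred on their medians (-0.08, adjusted p = 0.177), with no filter on level (adjusted p = 0.0545), with the fat mean as a covariate (-0.07, adjusted p = 0.197) and without the pairing (adjusted p = 0.136). The other beta subunit that reached the minimum, Kcnmb4, differed by -0.19 (adjusted p = 0.0587). Over the pairs, the differences of Kcnma1 and Kcnmb1 had Pearson's r = 0.649 (permutation p = 0.00915, two-sided, 0.0183 adjusted over 4 relations chosen after the values were seen) and Spearman's rho = 0.398 (p = 0.161), but r was 0.0156 without the 2 pairs farthest from the median of Kcnma1, so this relation rests on them. Of 9 tested smooth muscle markers, 4 were lower (Myocd at -0.37, Lmod1 at -0.25, Synpo2 at -0.21 and Mylk at -0.11) and 0 higher. The rest, Smtn at -0.10, Cnn1 at -0.004, Myh11 at 0.04, Tagln at 0.06 and Des at 0.10, did not pass. The mean of the list ran from 10.64 to 11.20 in the low WSS pools and from 10.66 to 11.38 in the high WSS pools. Tagln and Cnn1, which did not differ between the regions by this test, were also used as covariates. In that fit the difference of Kcnmb1 was -0.23 (adjusted p = 0.00641) and that of Kcnma1 was -0.09 (adjusted p = 0.262).

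Of the 8 accessory subunits tested, 6 were lower and 0 were higher, with differences from -0.80 to -0.08 and a median of -0.18. Over all genes tested, 22% were lower and 19.7% higher. Kcnip3 encodes a calcium-binding protein, also called calsenilin or DREAM, which joins voltage-gated channels of the Kcnd type and represses transcription in the nucleus. Its levels were 6.68 to 7.87 (median 7.48) in the low WSS pools and 7.67 to 8.81 (median 8.21) in the high WSS pools. Of the low WSS pools, 11 lay below the lowest high WSS pool. The fall of 0.80 (SE 0.09, adjusted p = 2.39e-06), 1.74-fold, was the largest among the 43 members and was seen in 14 of 14 pairs. Of its channel partners, Kcnd2 rose by 0.28 (SE 0.05, adjusted p = 8.52e-05), being higher in 13 pairs, while Kcnd3 differed by -0.13 (adjusted p = 0.0852) and Kcnd1 by -0.02 (adjusted p = 0.886). Kcnd2 lay just inside the minimum, with levels of 3.91 to 4.43 (median 4.18) in the low WSS pools and 3.72 to 4.12 (median 3.91) in the high WSS pools, and it passed the minimum through the low WSS pools.

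Kcnab1, the cytoplasmic beta subunit of the Kcna channels, was lower in low WSS in 13 of 14 pairs, by 0.41 (SE 0.06, adjusted p = 3.02e-05). Its levels were 4.96 to 7.56 (median 6.18) in the low WSS pools and 5.29 to 7.88 (median 6.49) in the high WSS pools, so the regions overlapped almost fully and the difference shows only within pairs. Without the pairing it was the same size with adjusted p = 0.272. Among the partners of Kcnab1, Kcna5, a voltage-gated channel of arterial smooth muscle, fell by 0.35 (SE 0.08, adjusted p = 0.00164), with levels of 4.57 to 5.15 (median 4.74) in the low WSS pools and 4.49 to 5.45 (median 5.16) in the high WSS pools, and was lower in 11 pairs. With Tagln and Cnn1 as covariates its difference was -0.17 (adjusted p = 0.198). Kcna3, better known from lymphocytes, rose by 0.18 (SE 0.06, adjusted p = 0.0184), was higher in 9 pairs, and did not pass with Tagln and Cnn1 as covariates (adjusted p = 0.227). Of 9 tested myeloid markers 4 were higher (Itgb2, Cd53, Laptm5 and Ptprc) and 0 lower. The rest, Cd163 at -0.27, Mrc1 at -0.22, Adgre1 at -0.17, Cd68 at 0.03 and Csf1r at 0.19, did not pass. The mean of the list was 5.89 to 6.70 in the low WSS pools and 5.88 to 6.56 in the high WSS pools. No list of lymphocyte markers was set, and the part of leucocytes of any kind in the rise of Kcna3 was not tested. Kcna2 differed by 0.04 (adjusted p = 0.499). The other accessory genes past the threshold were Kcne2 at -0.16, Kcne5 at -0.17 and Kcnrg, whose product suppresses the assembly of voltage-gated channels, at -0.14 (adjusted p = 0.0493). The call of Kcnrg was lost in 8 of 9 alternatives and without any one of 10 pairs, that of Kcne5 in 5 of them and without replicate 14, and that of Kcne2 without the pairing and with Tagln and Cnn1 as covariates. Kcne4 differed by -0.08 (adjusted p = 0.129).

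Of the voltage-gated pores, 11 were tested, of which 2 were higher, 3 were lower and 6 did not pass. Kcnh2, the hERG channel that repolarizes cardiac cells, had levels of 7.37 to 8.06 (median 7.80) in the low WSS pools and 7.66 to 8.46 (median 8.24) in the high WSS pools, and fell by 0.40 (SE 0.05, adjusted p = 4.92e-06) in 14 of 14 pairs. Of the low WSS pools, 4 lay below every high WSS pool, and the other 10 overlapped with them. Muscle markers of heart and skeleton were lower in low WSS in 3 of 7 tested, namely Ckm, the muscle creatine kinase, at -0.68, and the heart markers Myl7 at -0.41 (adjusted p = 0.0372) and Myh6 at -0.28 (adjusted p = 0.00615), and the mean of the list ran from 5.47 to 6.10 in the low WSS pools and from 5.69 to 6.52 in the high WSS pools. Myl7 was lower in 8 of 14 pairs. The others tested of this list, Tnnt2 at -0.05, Actc1 at -0.12, Acta1 at -0.01 and Mb at -0.13, did not pass. Myh7, Nppa and Tnni3 were under the minimum, and the part of heart and skeletal muscle cells in the result was not tested. Kcnq1 fell by 0.23 (SE 0.05, adjusted p = 0.00222), with levels of 8.46 to 8.93 (median 8.70) in the low WSS pools and 8.68 to 9.22 (median 8.91) in the high WSS pools. Kcnq5, a relative of Kcnq1 in arterial smooth muscle, differed by 0.00 (95% confidence interval -0.10 to 0.09) on levels of 7.25 to 7.77 (median 7.46) in the low WSS pools and 7.18 to 7.83 (median 7.48) in the high WSS pools, and the pools of the regions overlapped throughout. Kcnh3 and Kcnh4 differed by 0.02 and 0.04. Of the 5 silent subunits tested, Kcng1 rose by 0.35 (SE 0.11, adjusted p = 0.0132), being higher in 11 pairs, with levels of 5.31 to 6.63 (median 6.08) in the low WSS pools and 5.20 to 6.13 (median 5.83) in the high WSS pools, and Kcns2 fell by 0.16 (adjusted p = 0.038). Kcng1 was at 0.27 (adjusted p = 0.0859) in pairs 4 to 14 and did not pass with Tagln and Cnn1 as covariates either (adjusted p = 0.175), and the call of Kcns2 was lost in 7 alternatives and without replicate 1, 2, 5, 6, 7, 10, 12 or 13.

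The tandem-pore leak channels went both ways. Kcnk3, an acid-sensitive channel of arterial smooth muscle that is also known from brown fat, had levels of 7.95 to 9.06 (median 8.57) in the low WSS pools and 7.50 to 8.45 (median 8.14) in the high WSS pools. Of the low WSS pools, 10 lay above every high WSS pool, and the rise was 0.44 (SE 0.07, adjusted p = 6.91e-05) in 13 of 14 pairs, the exception being pair 4. With the mean of the fat cell list as a covariate it was 0.40 (adjusted p = 0.000322). Kcnk4 (TRAAK), a channel opened by membrane stretch, had levels of 4.40 to 4.81 (median 4.61) in the low WSS pools and 4.63 to 5.12 (median 4.93) in the high WSS pools, and fell by 0.31 (SE 0.05, adjusted p = 0.000151) in 12 pairs. Kcnk1 had levels of 4.06 to 4.79 (median 4.37) in the low WSS pools and 3.78 to 5.29 (median 4.77) in the high WSS pools, a fall of 0.35 (SE 0.09, adjusted p = 0.00393), and was lower in 13 pairs, the exception being pair 5. With Tagln and Cnn1 as covariates it was at -0.12 (adjusted p = 0.408). Kcnk6, known from vascular smooth muscle, differed by 0.01 (95% confidence interval -0.11 to 0.13) on levels of 6.35 to 6.94 (median 6.70) in the low WSS pools and 6.27 to 6.88 (median 6.71) in the high WSS pools. Kcnk12, Kcnk13 and Kcnk18 lay between -0.16 and 0.17 and did not pass.

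Of the 6 inward rectifiers tested, 1 passed the threshold, and the median difference was 0.02. Kcnj8, the pore of the ATP-gated channel of vascular smooth muscle, had levels of 8.45 to 9.61 (median 9.01) in the low WSS pools and 8.47 to 9.75 (median 8.84) in the high WSS pools and a difference of 0.06 (95% confidence interval -0.03 to 0.15, adjusted p = 0.242). Kcnj2, an inward rectifier of endothelium that responds to shear, differed by -0.03 (95% confidence interval -0.21 to 0.16) on levels of 4.05 to 5.15 (median 4.37) in the low WSS pools and 4.18 to 4.66 (median 4.46) in the high WSS pools, and its other probe set had a mean level of 4.00, just outside the minimum. Kcnj15 rose by 0.18 (SE 0.06, adjusted p = 0.0235), being higher in 10 pairs, a call that ended without replicate 5 (adjusted p = 0.0508). Kcnj11, the other ATP-gated pore, had a mean level under the minimum, with values of 3.13 to 3.84 (median 3.41) in the low WSS pools and 3.12 to 3.84 (median 3.29) in the high WSS pools. The regulatory subunits of these pores were lower. Abcc8, the sulfonylurea receptor that pairs with Kcnj11, had levels of 4.76 to 5.25 (median 5.04) in the low WSS pools and 5.28 to 5.63 (median 5.43) in the high WSS pools, with no overlap between the regions, against 0.502% of all genes that lay lower without overlap, and a difference of -0.38 (SE 0.05, adjusted p = 9.12e-06). Abcc9, which pairs with Kcnj8, was at 10.28 to 10.99 (median 10.74) in the low WSS pools and 10.67 to 11.23 (median 10.80) in the high WSS pools, with a difference of -0.16 (SE 0.05, adjusted p = 0.00926). Each receptor gene is the neighbour of its pore gene in the RefSeq annotation, Kcnj11 beside Abcc8 and Kcnj8 beside Abcc9.

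Partners of the channels and other carriers of potassium were counted as a list of 30 genes, of which 25 were annotated and 18 tested. Of these, 2 rose and 7 fell in low WSS, against 19.7% and 22% of all genes tested, with a median difference of -0.06. Beside Abcc8 and Abcc9, the lower genes were Lrrc38, a gamma subunit of the large calcium-activated channel, at -0.19, the pacemaker channel Hcn2 at -0.20, and the sodium pump genes Atp1b2 at -0.55, Fxyd5 at -0.19 and Fxyd6 at -0.46. Of the sodium pump beta subunits, which carry the pump to the membrane, Atp1b2 was lower in all 14 pairs (SE 0.06, adjusted p = 2.67e-06), while Atp1b3 was higher at 0.34 (SE 0.06, adjusted p = 0.000251) and Atp1b1 at 0.20 (SE 0.05, adjusted p = 0.00368). Fxyd1, the pump regulator of muscle, differed by 0.01, and the potassium chloride transporters Slc12a4 and Slc12a7 by -0.03 and -0.05, and these did not pass.

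Kcnab1 and Kcnj8 stood apart in how they varied from pair to pair. The level of Kcnab1 was 7.56 in the low WSS pool and 7.88 in the high WSS pool of pair 5, but 4.96 and 5.29 in those of pair 14, a spread over pairs far above the difference between regions. Over the 14 pairs its level in the low WSS pool followed that in the high WSS pool with Pearson's r = 0.965 (permutation p = 1e-05, two-sided, the smallest that 100000 permutations can give; 0.000215 adjusted over the 43 members) and Spearman's rho = 0.934 (p = 1e-05, 0.000215 adjusted). Without the 2 pairs farthest from the median r was 0.948, and in pairs 4 to 14 it was 0.976. Kcnj8 behaved alike, with 9.61 in the low WSS pool and 9.75 in the high WSS pool of pair 6 against 8.51 and 8.47 in pair 2, and r = 0.915 (p = 1e-05, 0.000215 adjusted), rho = 0.934 (p = 1e-05, 0.000215 adjusted) and r = 0.909 without the 2 farthest pairs. No other member passed an adjusted p of 0.05 for Pearson's r. The median r was 0.217 over the 43 members and 0.221 over all genes tested, among which Kcnab1 ranked 5 and Kcnj8 ranked 43 of 11750. Kcnmb1 had r = 0.439 and rho = 0.780 (adjusted p = 0.0224 for rho), with r = 0.914 in pairs 4 to 14. The mean level of Kcnj8 in a pair followed that of its partner Abcc9 with r = 0.749 (p = 0.00199, 0.00796 adjusted over 4 relations chosen after the values were seen). Its rho of 0.644 (p = 0.0159, 0.0636 adjusted) did not pass after adjustment, and r was 0.591 without the 2 farthest pairs and 0.579 in pairs 4 to 14. The pair means of Kcnj8 and Kcnab1 gave r = 0.357 (p = 0.211) and rho = 0.327 (p = 0.253), and those of Abcc9 and Kcnab1 r = 0.209 (p = 0.475) and rho = 0.279 (p = 0.334), and neither passed.

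**Figure D3:**
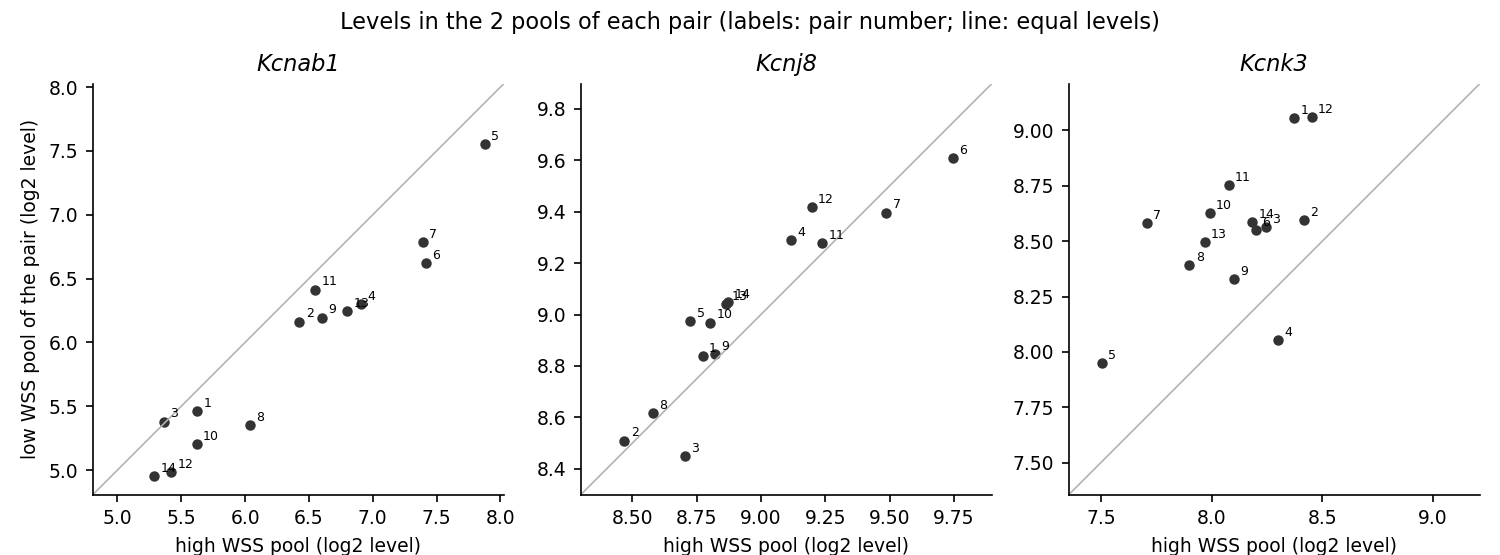
Level in the low WSS pool against that in the high WSS pool of the same pair (log2) for Kcnab1, Kcnj8 and, for comparison, Kcnk3, with pair numbers and a line of equal levels. Kcnab1 (r = 0.965) and Kcnj8 (r = 0.915) run along the line over their whole range, Kcnab1 mostly below it, and Kcnk3 (r = 0.557) lies above it in 13 of 14 pairs.

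Fat cell genes vary widely between these pools, so the members were also set against them. Of the 14 tested fat cell markers 3 rose in low WSS (Acsl1, Fabp4 and Lpl) and 0 fell by limma, with 4 higher at an unadjusted p under 0.05 and a median difference of 0.72. Their mean was 5.69 to 9.37 (median 6.73) in the low WSS pools and 5.57 to 9.30 (median 5.96) in the high WSS pools, and low minus high it ran from -1.89 in pair 6 to 3.36 in pair 2. In a limma fit with region, pair and this mean, 3 of the 43 members had a slope with an adjusted p under 0.05, 1 positive and 2 negative, against 5.9% positive and 1.11% negative of all genes. Kcng2, a silent subunit, rose by 0.21 per log2 unit of the fat mean (SE 0.04, adjusted p = 0.00359), had levels of 5.00 to 6.14 (median 5.28) in the low WSS pools and 4.81 to 5.78 (median 5.20) in the high WSS pools, and its difference between the regions did not pass (adjusted p = 0.354). Kcnip3 had a slope of -0.17 (SE 0.04, adjusted p = 0.0113), and its region difference was -0.67 (SE 0.07, adjusted p = 1.13e-06) in that fit. Kcnq5 had a slope of -0.08 (SE 0.02, adjusted p = 0.0421). The slope of Kcnip3 did not pass without replicate 2, and that of Kcnq5 did not pass with no filter on level or without any one of 10 pairs, whereas Kcng2 passed without each pair in turn. The slope of Kcnk3 was 0.05 (adjusted p = 0.563). Region calls that ended with the fat mean as a covariate were those of Kcng1, Kcnt1, Kcnma1, Kcns2 and Kcnrg.

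**Figure D4:**
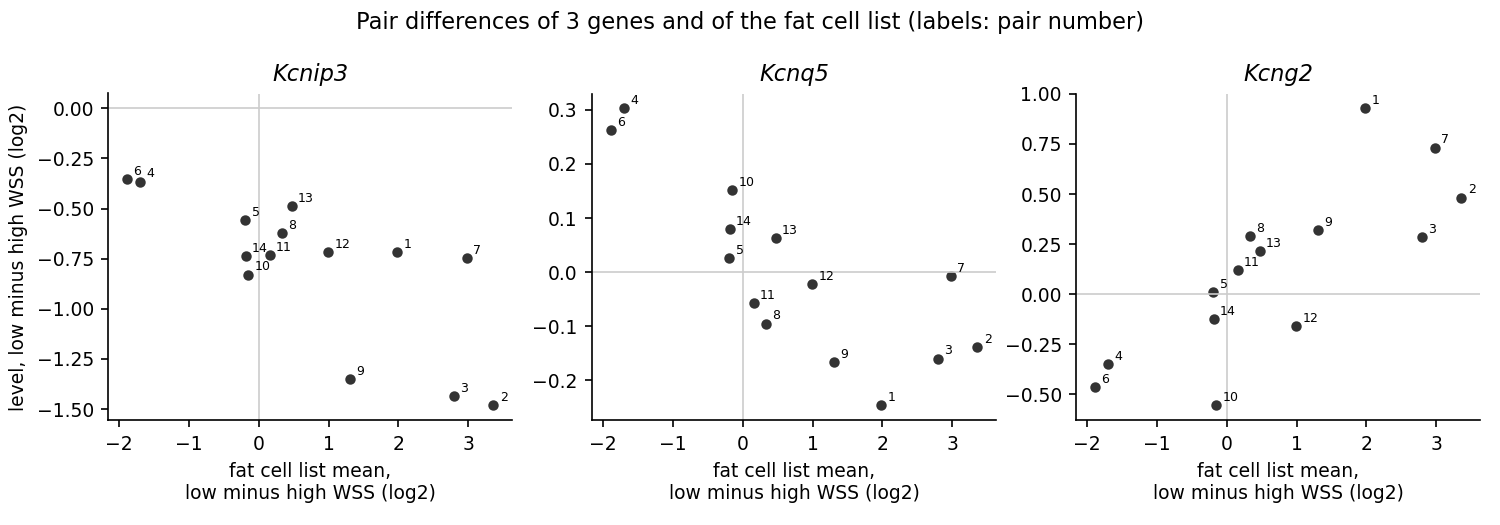
Difference of Kcnip3, Kcnq5 and Kcng2 (low minus high WSS, log2) against the difference of the fat cell list mean in the same pair, with pair numbers. Kcnip3 lies below 0 in all 14 pairs, and lowest in pairs 2, 3 and 9.

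The 40 genes under the minimum had mean levels of 2.55 to 3.88 and were not tested. Without the filter on level, 10 of them were lower in low WSS and 0 higher, by limma, with the largest difference in Kcnj13, an inward rectifier of epithelia, at -0.41, with levels of 2.56 to 3.00 (median 2.80) in the low WSS pools and 2.89 to 3.52 (median 3.21) in the high WSS pools. Kcna1, a voltage-gated channel of axons, lay just outside the minimum with a mean of 3.88 over all arrays (3.71 over the low WSS pools and 4.04 over the high WSS pools). Most dim genes passed in neither direction, but those that passed were more often lower than higher in low WSS. Of all 5495 genes under the minimum 9.77% were lower and 1.62% higher. Of the 1943 genes at mean levels of 4 to 5, 19.6% were lower and 7% higher. Among members at 4 to 5, 6 of 19 were lower and 3 higher. Among those at 6 or more, 6 of 15 were lower and 3 higher, where 22.8% and 23.7% of all genes were. Neuronal markers, whose cells use many of these channels, were under the minimum in 5 of 9 annotated, Th and Snap25 among them. Of the 4 tested, 1 was higher and 1 lower, and their mean was 4.49 to 4.86 in the low WSS pools and 4.42 to 5.23 in the high WSS pools. Of 6 tested Schwann cell markers 1 was lower (Pmp22 at -0.14) and 0 higher, with a mean of 5.59 to 6.25 in the low WSS pools and 5.57 to 6.49 in the high WSS pools. Pmp22, at a mean of 11.86 in the low WSS pools against 5.50 for Cdh19, the next highest, raised that mean. Of 8 tested fibroblast markers 2 were higher and 3 lower, with a mean of 10.18 to 10.84 in the low WSS pools and 10.42 to 10.92 in the high WSS pools.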

How the data were processed

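RNA of 28 pools was hybridized to Affymetrix Rat Gene 1.1 ST arrays, 1 per pool. The deposited values are log2 levels that the authors made with RMA (background correction, quantile normalization, summary per probe set), with the array annotation of build rn4. RMA brings all arrays to a common distribution, so a change in total mRNA cannot be seen, and dim probe sets understate changes. Array medians were 4.85 to 4.92 in low WSS and 4.88 to 5.00 in high WSS, and r between arrays was 0.979 to 0.997. The number of arrays limits the precision, and levels of different probe sets are not on 1 scale. Gene symbols came from the platform annotation; all 83 member genes had the same symbol in RefSeq (GRCr8), which gave the promoter sequences (28 tested members matched by symbol), their positions and the neighbours of a gene. No gene coordinates are given on build rn4. Probe sets with several symbols were not analysed here.

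Probe sets with no symbol or a mean under 4 were left out, which left 13383. Low minus high WSS was fitted with limma 3.58.1 in R 4.3.3 with the pair as a block, and p-values were adjusted over all 13383 probe sets (Bonferroni threshold 3.74e-06). A gene with several probe sets is given by that with the highest mean. Pools were paired because the methods describe each pair as coming from the same rats. The labels give a region and a replicate number, and equal numbers were taken as a pair. Deviations of paired pools from their region mean had r of -0.01 to 0.48, over 0.1 in 11 of 14 pairs, but not in pairs 1, 2 and 3. On simulated data for this comparison with 13383 probe sets, 50 were changed at each size of 0.3, 0.6, 1 and 2. There, 43 of 50 changes of 0.3 and 49 of 50 of 0.6 were recovered, with 17 false calls. Far fewer probe sets were changed than passed in the data, so the number of false calls does not carry over to the data. Named were all Kcn genes past an adjusted p of 0.05, with full values from a difference of 0.3 or for 14 listed channels of the vessel wall. Members and lists were chosen with earlier results of these data known. Alternatives were the methods' paired t-test, no pairing, trend and robust estimation, no filter or a mean of at least 6, arrays centred or quantile normalized again, covariates (Tagln and Cnn1, or the mean of the fat cell list), pairs 4 to 14 alone, gene medians and leaving out each pair. Calls under the alternatives were followed for Kcn genes only, not for partner or marker genes.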

Additional observations from a re-analysis of the deposited data

How the results depend on the processing

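The 7 higher potassium channel genes became 3 at a mean level of at least 6, where fewer genes were tested, and 7 to 9 when each pair was left out in turn. The 14 lower genes became 9 without the replicate block (8 of them among the 14), 22 with no filter on level, 6 at a mean of at least 6, 9 with arrays centred on their medians, 8 with Tagln and Cnn1 as covariates, and 10 to 15 when each pair was left out, with 15 without replicate 3. The methods' paired t-test gave 7 higher and 12 lower. The 3 members with a slope on the fat cell list became 6 without the replicate block and 1 to 3 when each pair was left out, with 1 without replicate 2. Of the 21 calls, 9 were kept in every alternative and every fit without a pair in which the gene was tested (Kcnd2, Kcnh2, Kcnip3, Kcnk3, Kcnk4, Kcnmb1, Kcnn3, Kcnq1 and Kcnt2), and 15 in every fit without a pair. Among the 9, Kcnd2 reached the minimum level through the low WSS pools, where it was high, and its call with no filter on level had adjusted p = 0.000129. The pairing changed the calls of Kcnab1, Kcne2, Kcne5, Kcnma1, Kcnrg and Kcns2, and of no other member called with it. No called member changed direction. With Tagln and Cnn1 as covariates, differences of -0.16 for Kcne2 and -0.17 for Kcne5 were -0.07 and -0.08, and those of 0.18 for Kcnj15, -0.14 for Kcnrg and -0.16 for Kcns2 were 0.30, -0.25 and -0.26. Causes were not tested. Signal near background limits all members under a level of 5.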
